A study of Mus musculus with 5 samples.

Results

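The hedgehog pathway was followed in forelimbs of mouse embryos through 9 genes: the ligand gene Shh, the receptor and surface genes Ptch1, Boc and Hhip, the transducer gene Smo, and Sufu, Gli1, Gli2 and Gli3 at the transcriptional end. They were chosen by name as the core of the pathway, with earlier results of these data known. Each of the 9 symbols had a single row of its own among the 22653 single gene symbols of the deposited table. The embryos were at E11.5, with 47 to 48 somites, on a background that mixes C57BL/6 with Swiss Webster, and the series holds 3 control and 2 Prmt5cKO samples, stated to be biological replicates. Prmt5cKO embryos carried Prx1Cre+/- and Prmt5c/c, that is a conditional Prmt5 allele on both chromosomes and a Cre recombinase driven in limb bud mesenchyme, so ectoderm, blood and vessels of the limb are outside the main domain of the Cre. The genotype of the controls is labelled only as control, and whether they carried the Cre or a conditional allele is not stated in the labels. Prmt5 encodes an enzyme that methylates arginines of histones, splicing factors and other proteins.

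Sonic hedgehog is secreted at the posterior margin of the limb bud, in the zone of polarizing activity, and sets the number and identity of digits. Without ligand, the receptor Patched1 holds Smoothened inactive and Gli3 and Gli2 are cut into repressors with the help of Sufu and protein kinase A. With ligand, Smoothened acts at the primary cilium, Gli proteins enter the nucleus as activators, and Ptch1, Gli1 and Hhip are among the targets they switch on, so levels of Gli1 and Ptch1 are widely read as a measure of the response. In the limb the signal is tied to the apical ectodermal ridge through a loop in which mesenchymal Grem1 sustains ridge Fgf genes and these sustain Shh.

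Measurements are FPKM (fragments per kilobase of transcript, scaled to the library total), 1 value per genotype that the authors computed over its samples. Values of single samples were not analysed here, so no value carries an SD, whether samples overlapped between genotypes is unknown, and so is the depth of the libraries. Tests are the authors' q-values (adjusted p-values). A gene is said to have risen or fallen where the mean of the 2 FPKM values was at least 1 and the authors' q was under 0.05. Rows that pair a fold change of 0 with a q of 1 are called untested. This is a reading of the values, as the columns used hold no test status. Among 11674 single genes at this level the ratio of Prmt5cKO to control leaned downwards, with a median log2 ratio of -0.13, and 69.8% lay below 0. Prmt5 went from 40.9 to 12.5 FPKM (q listed as 0 per the authors' deposited table), 30.6% of the control level. This value covers the whole transcript in the whole forelimb. The genotypes also differed in Xist, at 87.3 and 0.392 FPKM, and in the Y-linked Ddx3y, at 0.0840 and 21.8 FPKM, so genotype and the sex of the embryos cannot be told apart. The row of Xist was untested in this sense, so its difference is by value alone. None of the 9 genes lies on a sex chromosome.

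Of the 9 genes, Gli1 rose, Gli2 fell, and Smo, Sufu and Hhip did not pass the threshold. Ptch1, Gli3 and Boc were untested in this sense, and Shh lay below 1 FPKM in both genotypes, with a q that also met the threshold. Among 10617 tested genes of at least 1 FPKM, 4.83% rose and 19.3% fell, so 1 rise and 1 fall among 5 tested members are too few to set them apart from that background. Untested genes made up 33.3% of all 9 members, Shh under 1 FPKM included, and 9.05% of the 11674 genes at 1 FPKM or more. The median log2 ratio of the 9 was -0.04, with 4 above and 5 below 0.

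**Figure D1:**
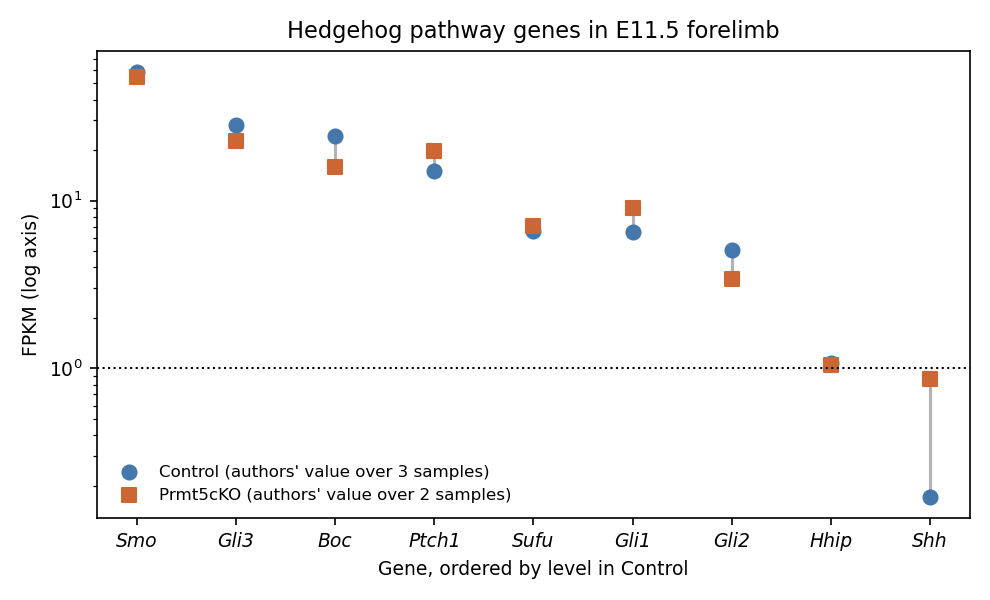
Level of each of the 9 genes as FPKM on a log axis, in control (circles, the authors' value over 3 samples) and Prmt5cKO (squares, over 2 samples), ordered by control level, with a dotted line at 1 FPKM. Smo stands highest at 58.4 and 54.3 FPKM, Shh lowest at 0.172 and 0.860, and Ptch1 and Boc change places between the genotypes.

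Upstream sequence was at hand for 6 of the 9 genes (RefSeq, GRCm38.p6). Those of Gli2, the member that fell, and of Ptch1 and Hhip, textbook targets of Gli proteins, are shown to let the windows be searched for the Gli recognition sequence. Each line gives the 250 bases before an annotated start site, 5′ to 3′ on the strand of the gene, at chr1:119053620-119053869, chr13:63565736-63565985 and chr8:80058009-80058258, all on the minus strand.

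Gli2: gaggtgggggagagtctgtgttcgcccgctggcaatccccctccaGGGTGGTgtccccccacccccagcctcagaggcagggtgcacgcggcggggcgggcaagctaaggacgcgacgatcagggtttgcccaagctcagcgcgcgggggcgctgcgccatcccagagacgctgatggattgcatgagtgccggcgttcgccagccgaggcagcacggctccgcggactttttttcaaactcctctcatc

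Ptch1: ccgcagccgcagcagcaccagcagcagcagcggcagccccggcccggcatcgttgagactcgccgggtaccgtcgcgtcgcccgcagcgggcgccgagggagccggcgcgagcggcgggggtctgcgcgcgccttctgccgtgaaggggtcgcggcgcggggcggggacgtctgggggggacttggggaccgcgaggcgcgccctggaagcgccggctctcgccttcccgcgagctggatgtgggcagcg

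Hhip: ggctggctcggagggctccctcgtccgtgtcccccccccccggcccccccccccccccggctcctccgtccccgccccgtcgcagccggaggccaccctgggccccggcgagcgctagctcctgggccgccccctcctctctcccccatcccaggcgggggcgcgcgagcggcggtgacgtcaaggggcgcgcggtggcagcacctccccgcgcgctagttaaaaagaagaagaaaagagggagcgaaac

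Capitals mark the only match found in the 6 windows. The consensus searched was TGGGTGGTC and its inner core GGGTGGT, which the consensus contains, each on both strands. No member's window held the full consensus, which occurs in 0.225% of 32851 promoter windows of this length. The core occurred once, in Gli2, 205 bases before the start, and is found in 3.92% of all windows. A match of letters is a description of the sequence and not a binding site, and the windows hold no distal enhancers. The Ptch1 window belongs to a start site 7.86 kb inside the gene as GENCODE M21 draws it, so other starts of Ptch1 lie outside it. These windows were rich in G and C, at 67.2% for Gli2, 78.4% for Ptch1 and 76% for Hhip, against a median of 52.4% over all windows.

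The ligand gene Shh (ENSMUSG00000002633.4, chromosome 5 from 28456815 to 28467256, minus strand, GRCm38 in GENCODE M21, as all positions below) stood at 0.172 FPKM in control and 0.860 FPKM in Prmt5cKO. This is 5.0 times the control level (log2 fold change 2.32, q = 6.6e-04 per the authors' deposited table). It was the lowest of the 9 genes in both genotypes. In bulk RNA more Shh cells and more Shh RNA per cell cannot be told apart. Among 1241 genes with a mean from 0.1 to under 1 FPKM and a q below 1, 2.5% were higher and 7.74% lower at a q under 0.05, and 7 of those higher, Shh included, differed by at least the fold of Shh. A further 2129 genes in this range had a fold with a q of 1, and 13 genes above 0 FPKM in control were higher by at least the fold of Shh whatever their q. With a pseudocount of 1 FPKM the log2 ratio of Shh was 0.67 and with 0.1 FPKM 1.82, so its size rests on small values. A pseudocount cannot turn the sign of a ratio, so these values do not bear on its direction.

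The level of Shh was set beside markers of other places where the gene is made. Of 10 genes of floor plate, notochord and ventral neural tube, none reached 1 FPKM, Nkx2-2 and Noto were listed at 0 in both genotypes, and the floor plate factor gene Foxa2 stood at 0.0430 and 0.0240 FPKM. The highest of the 10 were Nkx6-2, at 0.374 and 0.547 FPKM, and T, at 0.266 and 0.497 FPKM, both higher in Prmt5cKO by value. The summed level of the 10 was 0.912 FPKM in control and 1.31 FPKM in Prmt5cKO. Of 7 genes of gut, lung and cloacal endoderm none reached 1 FPKM either, with sums of 1.13 and 1.52 FPKM. The highest of these were Sox17, at 0.773 and 0.861 FPKM, and Nkx2-1, at 0.199 and 0.435 FPKM. Whether such cells added to the level of Shh was not tested. The forelimb gene Tbx5 stood at 23.0 and 19.9 FPKM and of 3 hindlimb genes Pitx1 stood at 0.143 and 0.268, Isl1 at 0.859 and 1.18 and Tbx4 at 3.81 and 2.95 FPKM. Of 8 markers of limb mesenchyme, 7 with rows of their own summed to 431 and 434 FPKM, and none of the 5 tested passed the threshold. The eighth, the receptor gene Pdgfra, shares its row with Mir7025, and that row fell from 108 to 56.3 FPKM (log2 fold change -0.95, q listed as 0 per the authors' deposited table). With it the sums were 540 and 490 FPKM.

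Other ligand genes were near silent. Ihh, the ligand of growing cartilage, stood at 0.241 and 0.153 FPKM, and Dhh, the ligand of Schwann cells and gonads, at 0.0750 and 0.0765 FPKM. Of 4 tested genes of ligand processing and release, 1 fell and 3 did not pass, a share of 25% against 19.3% of all genes. It was Disp1, whose product releases lipid-bearing ligand from the cells that make it, at 4.93 and 3.91 FPKM (log2 fold change -0.33, q = 0.0026 per the authors' deposited table). Scube3, another release factor, shares its row with Zfp523 and was left out of the count; that row was lower (log2 fold change -0.42, q = 4.4e-07 per the authors' deposited table).

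Position around Shh was examined after its values were seen. Within 1000 kb on either side of the Shh start site lie 11 protein-coding genes, Shh included, 5 of them at 1 FPKM or more. Rbm33, which encodes an RNA-binding protein and is the nearest of these, rose, from 17.3 FPKM to 26.7 (log2 fold change 0.63, q = 2.1e-14 per the authors' deposited table). Lmbr1, the gene with the limb enhancer of Shh in an intron, fell from 5.43 to 2.47 FPKM (log2 fold change -1.14, q = 3.6e-04 per the authors' deposited table). The nearer end of Lmbr1 lies 763 kb from the Shh start site, on chromosome 5 from 29229802 to 29378390. The gene with the enhancer and the gene under it thus had values that moved in opposite directions. Paxip1, a gene of the DNA damage response, rose from 17.7 to 19.7 FPKM (q = 0.0353 per the authors' deposited table), Nom1, a nucleolar gene, did not pass, and Insig1, a regulator of sterol synthesis, was not tested, at 35.5 and 25.1 FPKM. En2 and Cnpy1, between Insig1 and Rbm33, were listed at 0 in both genotypes.

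**Figure D2:**
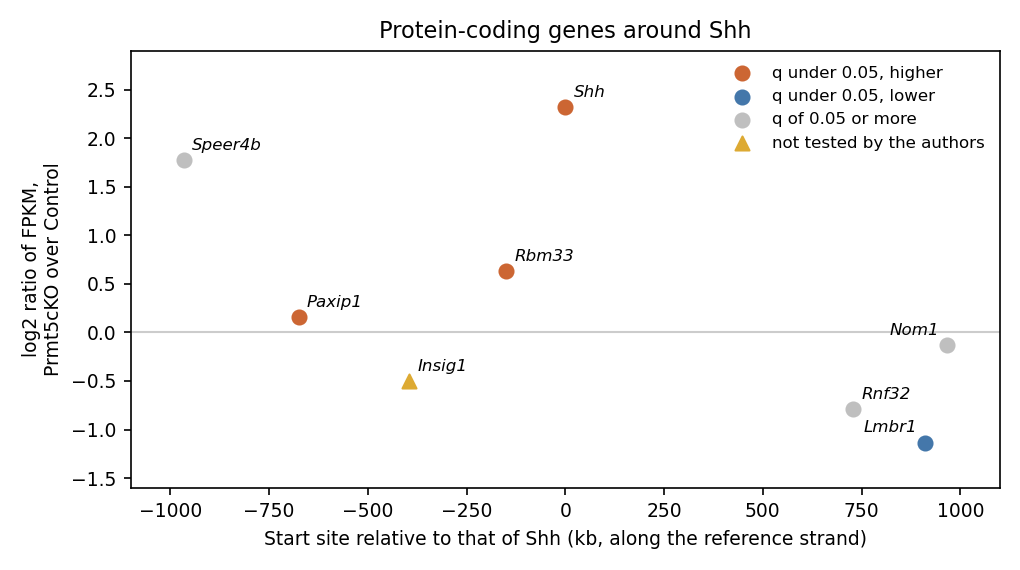
Log2 ratio of FPKM, Prmt5cKO over control, for the protein-coding genes around Shh, against the distance of their start sites from that of Shh in kb along the reference strand; colour gives the authors' q, and genes at 0 FPKM in a genotype are not drawn. Shh (2.32) and Rbm33 (0.63) lie above 0 and Lmbr1 (-1.14) below, while Speer4b, Rnf32 and Shh itself have a mean under 1 FPKM.

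At the cell surface the receptor and the co-receptor had values that differed in opposite directions. Ptch1 (ENSMUSG00000021466.12, chromosome 13 from 63508328 to 63573598), the receptor and a target of the signal, stood at 15.0 FPKM in control and 19.7 FPKM in Prmt5cKO, 132% of the control level. Boc (ENSMUSG00000022687.12, chromosome 16 from 44485049 to 44558897), a co-receptor that helps the ligand bind, stood at 24.2 and 15.9 FPKM, 65.8% of the control level. Both rows were untested, so neither is called a change. Their log2 ratios of 0.40 and -0.60 were above those of 96.1% and 7.26% of the 11674 genes. The ratio of Ptch1 to Boc, which does not depend on how the libraries were scaled, was 0.618 in control and 1.24 in Prmt5cKO.

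The other co-receptor genes had values that lay the same way as that of Boc. Cdon, the paralog of Boc, was untested at 21.2 and 13.9 FPKM, 65.8% of control, the same share as for Boc. Gas1, the third co-receptor, stood at 66.2 and 53.7 FPKM, and its q of 0.0518 per the authors' deposited table (log2 fold change -0.30) was just outside the threshold. All 3 co-receptor genes were thus lower in Prmt5cKO by value, none of them called. Of the 11674 genes, 69.8% lay below 0, so this does not set the co-receptor genes apart. Hhip (ENSMUSG00000064325.4, chromosome 8 from 79965851 to 80058006), a membrane protein that binds and sequesters the ligand, stood at 1.08 and 1.05 FPKM (log2 fold change -0.04, q = 0.942 per the authors' deposited table). Hhip, a target of the pathway like Ptch1, stood at 97.5% of control, and centring on the median gene turned its log2 ratio to 0.094. Its level was close to the minimum of 1 FPKM and Ptch1 was untested, so these targets cannot be said to differ in response.

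Of the 5 tested genes of reception that are reported here, Gas1 among them, 2 fell and 3 did not pass, where 19.3% of all tested genes fell; Cdon was not tested. The list is not complete, so its counts and its median are no measure of reception as a whole. The falls were Gpc3, a glypican that competes with Patched for ligand, at 363 and 252 FPKM, and Gpr161, a ciliary receptor that keeps the pathway off through protein kinase A, at 9.23 and 7.12 FPKM. Their log2 fold changes were -0.53 and -0.37 per the authors' deposited table. Genotype and the sex of the embryos cannot be told apart for these genes either. Whether Gpc3 or Gpr161 lies on a sex chromosome was not looked up.

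The core between receptor and Gli factors was close to level. Smo (ENSMUSG00000001761.7, chromosome 6 from 29735503 to 29761365), the membrane protein that carries the signal inward, was the most abundant of the 9 at 58.4 and 54.3 FPKM (log2 fold change -0.10, q = 0.592 per the authors' deposited table). Centred on the median gene its log2 ratio was 0.027. Sufu (ENSMUSG00000025231.17, chromosome 19 from 46396896 to 46488804), which binds Gli proteins and holds them in the cytoplasm, stood at 6.55 and 7.01 FPKM (log2 fold change 0.10, q = 0.359 per the authors' deposited table). Neither passed the threshold; without values per sample no interval bounds how far they might differ.

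Of 22 tested genes of signal transduction, which covers regulators of Smo, protein kinase A, the Gli-degrading ubiquitin ligases and ciliary transport, none rose, 3 fell and 19 did not pass. The 13.6% that fell compares with 19.3% of all genes. The authors' table holds adjusted values only, and at a q under 0.1 the counts were the same. The 3 were Btrc, the ubiquitin ligase adaptor that directs Gli3 towards its repressor form, Kif3a, a motor of ciliary transport, and Prkacb, a catalytic subunit of protein kinase A that marks Gli proteins for cleavage. Btrc went from 11.1 to 8.83, Kif3a from 17.0 to 13.9 and Prkacb from 32.5 to 26.5 FPKM, with log2 fold changes of -0.33, -0.29 and -0.30 per the authors' deposited table. Kif7, the ciliary kinesin that organizes Gli proteins, was untested at 9.89 and 9.72 FPKM. Gsk3b has 5 rows in the table; the most abundant, used here, did not pass (q = 0.484), while a minor row at 2.43 and 1.68 FPKM had q = 0.0078 per the authors' deposited table.

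The 3 Gli genes did not move together. Gli1 (ENSMUSG00000025407.7, chromosome 10 from 127329882 to 127341974), an activator that is itself induced by the signal, rose, from 6.50 FPKM to 9.06 (log2 fold change 0.48, q = 5.2e-06 per the authors' deposited table). Gli2 (ENSMUSG00000048402.14, chromosome 1 from 118834132 to 119053619), the main early activator, fell from 5.04 to 3.41 FPKM (log2 fold change -0.56, q = 5.0e-07 per the authors' deposited table). Gli3 (ENSMUSG00000021318.15, chromosome 13 from 15463235 to 15730026), the chief repressor of the limb bud, was untested at 28.1 and 22.7 FPKM, 80.6% of control. Prmt5cKO thus held more Gli1 and less Gli2 transcript by test, and less Gli3 by value alone.

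Compared within each genotype, the ratio of Gli1 to Gli2 FPKM was 1.29 in control and 2.66 in Prmt5cKO. The ratio of Gli1 to Gli3 was 0.231 and 0.400, and that of Gli2 to Gli3 was 0.179 and 0.151. Gli3 made up 70.9% of the summed Gli level in control and 64.5% in Prmt5cKO, Gli1 16.4% and 25.8%, and Gli2 12.7% and 9.71%, while the sum went from 39.7 to 35.2 FPKM. Gli3 was the most abundant of the family in both genotypes and Gli1 and Gli2, nearest in control, stood further apart in Prmt5cKO. These are levels of RNA; cleavage of Gli2 and Gli3 protein into repressors is not seen in them. Measured against all genes, the log2 ratio of Gli1 lay above 97.2% of them, that of Gli2 above 8.32% and that of Gli3 above 25.3%.

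**Figure D3:**
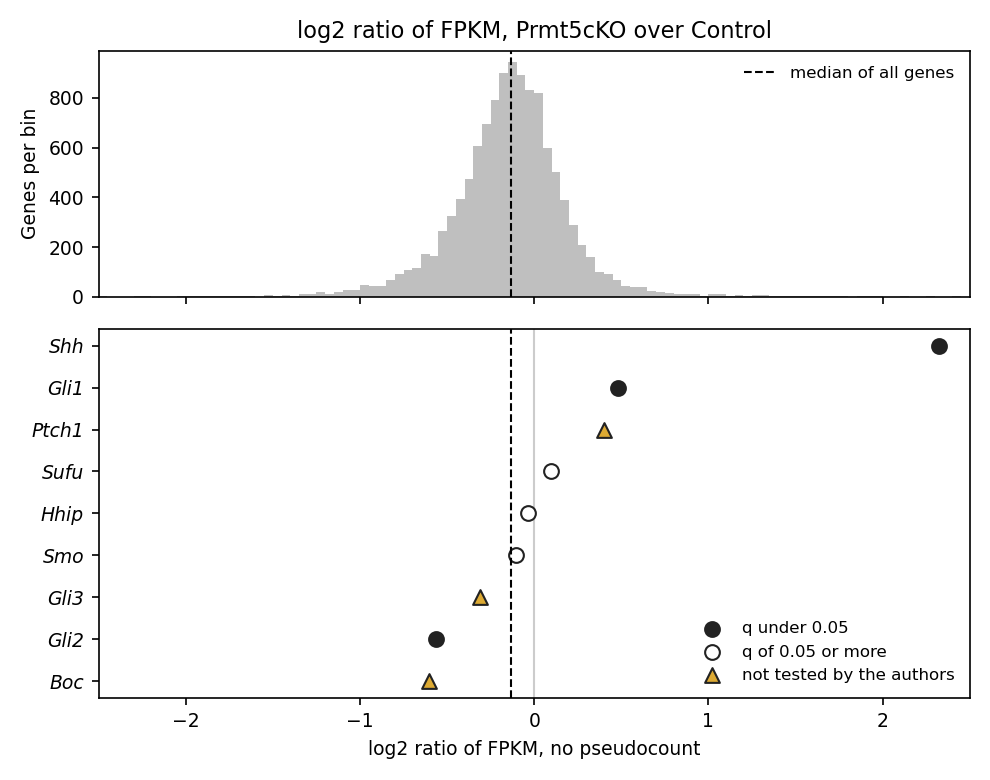
Top, number of genes with a mean of at least 1 FPKM in bins of the log2 ratio of FPKM, Prmt5cKO over control. Bottom, the same ratio for each of the 9 genes, filled where the authors' q is under 0.05, open where it is not, and a triangle where the row was read as untested. The dashed line is the median of all genes (-0.13): Shh (2.32), Gli1 (0.48) and Ptch1 (0.40) lie right of it, Gli2 (-0.56) and Boc (-0.60) left, and Smo and Hhip within 0.1 of it.

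In control the order of levels was Smo, Gli3, Boc, Ptch1, Sufu, Gli1, Gli2, Hhip and Shh. In Prmt5cKO Ptch1 stood above Boc and Gli1 above Sufu, and the order was otherwise the same. Sufu and Gli1 were within 1% of each other in control (ratio of Gli1 to Sufu 0.993) and had a ratio of 1.29 in Prmt5cKO. Without a spread over samples, which neighbours in these orders differ cannot be said. The authors' shorter table of 208 rows, whose rows all have an absolute log2 fold change of at least 1.0, holds none of the 9 genes. Shh met that fold, but its higher value of 0.860 FPKM lay under 1.39, the smallest higher value of any row there.

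Genes of the posterior limb bud that answer to Shh or mark its domain went both ways, with 6 rises, 3 falls and 10 not past the threshold among 19 tested (31.6% risen and 15.8% fallen, against 4.83% and 19.3% of all genes). Their median log2 ratio was 0.05, against -0.13 over all genes. This list, like the others, was drawn up with earlier results of these data known. Shares set against all genes are therefore descriptions and not tests. Grem1, the BMP antagonist of the loop between mesenchyme and ridge, rose from 8.0 to 23.5 FPKM, log2 fold change 1.56 per the authors' deposited table. Jag1, a Notch ligand, rose from 20.8 to 32.3 FPKM, and Tbx2 and Tbx3, T-box factors of the limb margins, from 6.0 to 9.20 and from 6.38 to 7.89 FPKM. Mycn and Cdk6, genes of proliferation, rose from 31.8 to 44.5 and from 7.25 to 8.81 FPKM. Log2 fold changes of Jag1, Tbx2, Tbx3, Mycn and Cdk6 were 0.64, 0.62, 0.31, 0.48 and 0.28 per the authors' deposited table.

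Hand2, Hoxd13 and Bmp2 did not pass. Hand2, the posterior factor that switches Shh on, stood at 52.1 and 48.9 FPKM (q = 0.664), Hoxd13, its distal partner, at 114 and 107 FPKM (q = 0.613), and Bmp2, a posterior target, at 5.11 and 5.29 FPKM (q = 0.814 per the authors' deposited table). The falls, picked out after their values were seen, were Hoxd12, Osr1 and Tbx18, with log2 fold changes of -0.40, -0.49 and -0.30 per the authors' deposited table. Osr1 only just passed, at q = 0.0492 per the authors' deposited table. In the anterior domain, where Gli3 repressor keeps the signal out, 1 of 9 tested genes rose and 8 did not pass (11.1% risen, against 4.83% of all genes). It was Hoxc6, a homeobox gene, at 1.02 and 1.92 FPKM (q = 0.0435 per the authors' deposited table), while Alx4, a repressor of anterior Shh, stood at 4.87 and 4.82 FPKM (q = 0.973).

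**Figure D4:**
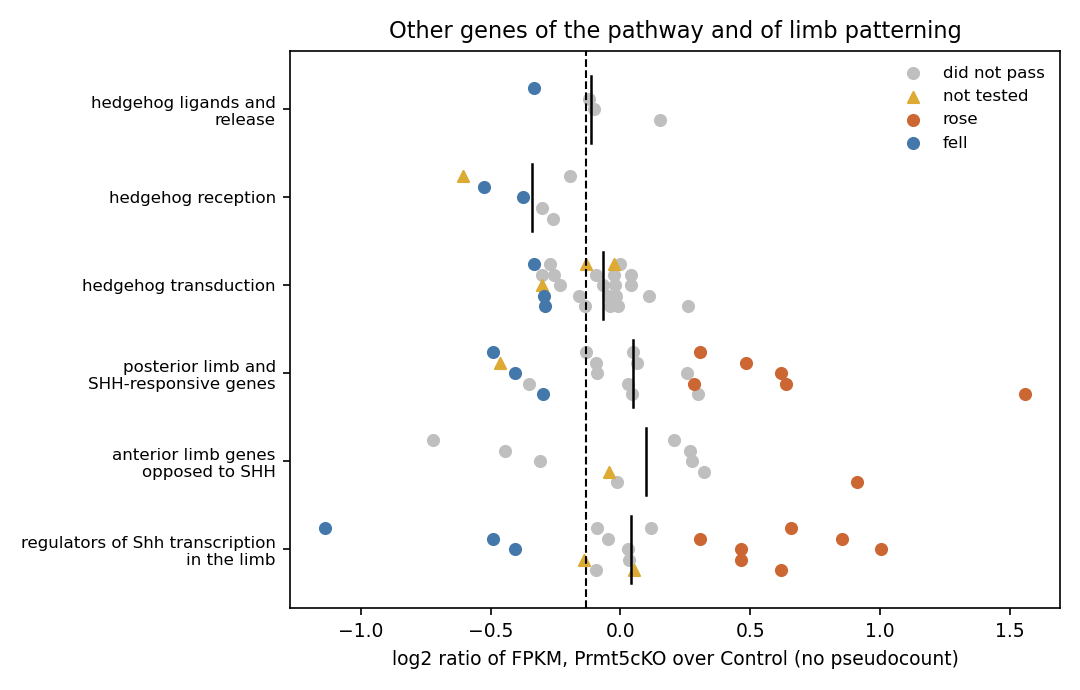
Log2 ratio of FPKM, Prmt5cKO over control, for 6 lists of other pathway and limb genes, 1 point per gene with a mean of at least 1 FPKM and a row of its own; colour gives the call, the short line each list's median and the dashed line the median of all genes (-0.13). Rises stand in the lists of posterior genes (Grem1 at 1.56), of Shh regulators (Fgf8 at 1.0) and of anterior genes (Hoxc6 at 0.91), and none in those of ligands or transduction; the list of reception is shown in part.

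Among 16 tested genes listed as tied to Shh transcription in the limb, 7 rose, 3 fell and 6 did not pass (43.8% and 18.8%, against 4.83% and 19.3%). It too was a list drawn up with earlier results of these data known. A further 3 genes of the list share rows with other genes and were left out; 2 of these rows were lower at a q under 0.05. This list shares several genes with the posterior list, Tbx2, Tbx3, Hoxd12 and Osr1 among them. Fgf8, the ridge growth factor that sustains Shh, rose from 7.17 to 14.4 FPKM. Etv4 and Etv5, Fgf-induced factors that restrict Shh to the posterior margin, rose from 13.0 to 17.9 and from 17.6 to 27.8 FPKM, and Lhx2, a relay from ridge to mesenchyme, from 20.2 to 27.9 FPKM. Log2 fold changes were 1.0, 0.46, 0.66 and 0.46 per the authors' deposited table. Genes that sustain Shh and genes that restrict it were thus both among the rises. The 3 falls were Lmbr1, Hoxd12 and Osr1, given above. Lmbr1 was counted as the gene with the limb enhancer in an intron, so its fall is not that of a regulator of Shh.

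Shh, Fgf8 and Grem1, 3 stations of the loop between ridge and mesenchyme, were all higher in Prmt5cKO, Shh with a mean under 1 FPKM. Whether they changed together as a loop was not tested. Fgf4, the ridge gene most dependent on the loop, stood at 0.0666 and 0.243 FPKM with a q of 1 per the authors' deposited table and was below 1 FPKM. Of 11 markers of ridge and surface ectoderm 4 rose (Fgf8, Sp6, Sp8 and Epcam), none fell and 7 did not pass (36.4% risen, against 4.83% of all genes), and their summed level was 174 FPKM in control and 180 FPKM in Prmt5cKO. Of 10 macrophage markers 8 rose (80%, against the same 4.83%), with sums of 29.5 and 53.7 FPKM. Of the rest, 6 endothelial markers (sums of 55.9 and 53.6 FPKM), 6 of muscle precursors (34.3 and 33.2), 6 of nerve and Schwann cells (19.2 and 15.9) and 6 of red cells (9207 and 7327) held no rise at 1 FPKM or more, and 1 fall each in the last 2 lists. In the muscle list Pax3, with a mean under 1 FPKM, was higher in Prmt5cKO, at 0.525 and 1.14 FPKM (log2 fold change 1.11, q = 0.0019 per the authors' deposited table). The part of these cell types in the values of the 9 genes was not tested.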

How the data were processed

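RNA of E11.5 forelimbs was compared between 3 control and 2 Prmt5cKO samples, grouped by their titles. Per the submitters' processing notes, TopHat2 2.0.10, Bowtie2 2.1.0 and Cufflinks 2.1.1 were used with mm10, without stated roles; the gene annotation, the test, and how replicates were combined are not stated in the files or labels. Per the file headers, the authors deposited 1 FPKM value per genotype, a q-value and the log2 fold change, Prmt5cKO over control, for each of 28092 rows, and the same for a shorter table. Deposited folds matched the log2 of the FPKM ratio to within 1.3e-05 over 15770 single-gene rows. Rows naming no gene (4367 rows, 1.94% of summed FPKM in control and 2.08% in Prmt5cKO) were left out. No limma fit, omission of a replicate or replicate block could be run on these values, so every test is the authors' own.

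Single-gene rows were used, the highest mean where a symbol repeats. For untested rows the log2 ratio of FPKM is given, without a pseudocount. Positions are from GENCODE M21, sequences from RefSeq. The members and the lists were chosen with earlier results of these data known. Named were all members, up to 6 called genes a list by q, and pathway genes set in advance (Grem1, Hand2, Hoxd13, Bmp2, Ihh, Dhh, Cdon, Gas1, Kif7 and Lmbr1). Prmt5, Xist and Ddx3y were checks. Some genes of the wider lists are not reported here and were left out of their counts. Others (Hoxd12, Osr1, Tbx18, Alx4, Fgf4, Gsk3b, Scube3, the neighbours of Shh and single marker genes) were picked after their values were seen. Counting code (Python 3.11.15, pandas 2.3.3, numpy 2.4.6) was tested on simulated data. Alternatives were other minimum levels, q limits, a 1.5-fold minimum, pseudocounts, centring, quantile normalization and summed rows.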

Additional observations from a re-analysis of the deposited data

How the results depend on the processing

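Of the 9 members' log2 ratios, recomputed in 5 ways each (45 values), 42 kept their sign. Exceptions were Hhip, at 0.094 after centring on the median gene and 0.148 after quantile normalization, and Smo, at 0.027 after centring. Pseudocounts cannot turn a sign, and with 1 row per member summed rows repeat the same value. Only centring and quantile normalization could turn a sign, and all 3 reversals came from them. Counts of called genes held within 1.5 times in 26 of 42 recomputations. With a minimum mean of 5 FPKM the members called were 1 (Gli1, as Gli2 lay below it), and the lists of ligands and release and of anterior genes had 0. With no minimum level the members called were 3, Shh being the addition. The anterior list had 0 at a q under 0.01 and 2 at a q under 0.1. Asking for at least 1.5-fold as well left 0 of the members, 0 of ligands, 0 of reception and 0 of transduction. It left 3 of the posterior list, 1 of the anterior list and 5 of the regulators of Shh. Once ratios were centred on their median, the same demand left 1, 0, 0, 0, 4, 1 and 7, in that order. The changes of Gli1 and Gli2 are thus below 1.5-fold as deposited. No paired analysis was possible because the columns hold 1 value per genotype and carry no replicate numbers, and for the same reason no replicate could be left out. Depth is unknown, which limits what can be said of Shh at 0.172 FPKM.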
